A study of Mus musculus with 18 samples.

Results

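Pseudogenes are copies of genes that lie elsewhere in the genome and are not annotated as coding for the full protein. Most mouse pseudogenes are processed: a messenger RNA was copied back into DNA and inserted at a new place, without introns and usually without the promoter of its source. Highly transcribed housekeeping genes, above all those of ribosomal proteins, have left many such copies, and a short sequencing read from a young copy can be identical to one from the parent gene. The members described here were selected on their counts. They were the rows typed as pseudogene in the table of cultured CD8+ T cells that held at least 200 raw counts in at least 2 of the 8 cultured libraries. That rule gave 162 members of 2138 pseudogene rows, in a table of 17738 genes. Because these counts chose the members, the level of a member is a description.

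RNA was sequenced from mouse T cells in 18 libraries of 8 groups. The Nr4a1-OV group (2 libraries) held CD8+ T cells infected with a retrovirus carrying Nr4a1, a nuclear receptor gene induced by T cell receptor signals, and RV-GFP (2 libraries) held cells infected with the control virus. The cultured groups labelled Nr4a1 WT and Nr4a1 KO (2 libraries each) were naive CD8+ T cells activated on plates coated with antibodies to CD3 and CD28 at 2 µg/mL. All cultured cells were restimulated with PMA and ionomycin for 2 h. OT-I T cells recognise a peptide of ovalbumin through a transgenic receptor. Those found in tumours were sorted into Nr4a1RFP+ and Tim-3+ cells (2 libraries each) on day 21 after tumour cells were given. Ly108+ OT-I cells from tumours were labelled Nr4a1-/- (Ly108+ Nr4a1 KO, 3 libraries) or Nr4a1+/+ (Ly108+ Nr4a1 WT, 3 libraries). The strain background, age and sex of the mice, the type of Nr4a1 knockout allele and the cultures or animals behind replicate libraries are not stated, so p-values measure only the spread between these libraries.

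The cultured libraries held 16.8 to 17.1 M counts, of which the members took 0.525% to 0.635%. Nr4a1 itself held 5210 and 6138 counts in the cultured libraries labelled WT and 6221 and 6312 in those labelled KO. In the Ly108+ cells it was at 45.02 to 53.9 RPKM (reads scaled by gene length and library size) in libraries labelled WT and at 101 to 112 RPKM in those labelled KO. The level of Nr4a1 was thus not lower in either group labelled KO, and a count over the whole gene does not show whether a deleted part is missing. The groups are therefore named throughout by their labels. An exchange of the labels KO and WT in one setting was not tested, and it would turn every KO over WT direction given for that setting. CD8 T cell markers (Cd8a, Cd8b1, Cd3e, Cd3d, Trac) summed to 1518 RPKM or more in every cultured library and to 2363 RPKM or more in every Ly108+ library.

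Of the 162 members, 91 reached 200 counts in all 8 cultured libraries, and 16 reached it in libraries of 1 group only. These 16 had to differ from other groups, so comparisons with that group are given for them without a test. They were 7 members in Nr4a1 WT (Gm5948, Gm8199, Rplp0-ps1, Gm6278, Tmem181b-ps, Gm11964 and 5830417I10Rik), 4 in RV-GFP (Gm15484, Gm7730, Gm6477 and Rps13-ps2), 3 in Nr4a1-OV (Hmgb1-ps8, H2-K2 and Gm6969) and 2 in Nr4a1 KO (Rpl22-ps1 and Gm6170). At the edge of the rule, Gm4972 and 5830417I10Rik had a second highest count of 200 and Gm11964 of 201. Gm10039, Gm10288 and Gm16425 stood just outside with 196 each.

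Pseudogenes of Rplp0 gave the widest differences among libraries. Rplp0 encodes the acidic stalk protein of the large ribosomal subunit, and 6 members on 6 chromosomes had it as the closest protein-coding gene by sequence. The stretch below is from the coding sequence of Rplp0 (bases 334 to 423, GRCm38 chr5:115561114-115561203, plus strand) with the matching stretch of each copy, shown because these letters tell the copies from Rplp0, though not Gm8730 from Gm9625, which are identical here. Capitals mark bases that differ from Rplp0. The transcripts are those of GENCODE M21.
Rplp0: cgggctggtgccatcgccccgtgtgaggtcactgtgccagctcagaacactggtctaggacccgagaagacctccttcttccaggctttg
Gm8730: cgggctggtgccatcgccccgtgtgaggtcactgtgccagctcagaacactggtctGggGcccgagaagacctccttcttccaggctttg
Gm9625: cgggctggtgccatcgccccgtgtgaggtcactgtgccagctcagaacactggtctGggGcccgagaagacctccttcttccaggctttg
Gm6278: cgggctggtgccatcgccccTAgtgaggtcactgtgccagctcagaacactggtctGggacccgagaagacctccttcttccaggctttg
Rplp0-ps1: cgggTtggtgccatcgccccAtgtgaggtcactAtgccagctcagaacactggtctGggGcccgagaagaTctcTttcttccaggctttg
Gm5948: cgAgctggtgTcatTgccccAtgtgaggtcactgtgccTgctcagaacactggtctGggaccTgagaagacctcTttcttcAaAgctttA
Gm8199: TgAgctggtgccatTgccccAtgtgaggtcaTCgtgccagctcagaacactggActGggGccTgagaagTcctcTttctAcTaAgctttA

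Gm8730 and Gm9625 differed from Rplp0 at 2 of these 90 bases, Gm6278 at 3, Rplp0-ps1 at 7, Gm5948 at 11 and Gm8199 at 16. Over 501 coding bases that could be aligned in all 6 copies, 116 differed from Rplp0 in at least 1 copy and 2 carried the same change in all 6. Over the part of each transcript that aligned, identity to Rplp0 was 98.7% for Gm8730 (GRCm38 chr8:102864845-102865798), 97.4% for Gm9625 (chr13:67810246-67811200) and 94.1% for Rplp0-ps1 (chr3:93278141-93279073). It was 92.8% for Gm6278 (chr16:85644252-85645023), 85.5% for Gm5948 (chr10:16768940-16769778) and 84.7% for Gm8199 (chrX:144232759-144233581). All 6 are annotated as processed pseudogenes. Of the 50-base windows of Gm8730, 73.7% occurred in another annotated transcript, whereas Gm5948 and Gm8199 had no such window.

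In culture, the copies were abundant in the 2 libraries labelled Nr4a1 WT and low in the other 6. Rplp0-ps1 held 1267 and 1257 counts in WT, 40 and 36 in KO, 28 and 44 in Nr4a1-OV, and 38 and 34 in RV-GFP. Gm5948 held 610 and 642 counts in WT, 0 and 2 in KO, and 0 in each of the 4 virus-infected libraries. Gm8199 held 282 and 242 counts in WT and 1 to 3 in every other library. No WT library overlapped any other library for these copies. The WT to KO ratio was 620 for Gm5948 (95% interval from counting error 171 to 5124) and 130 for Gm8199 (50.4 to 478). Against a floor of 3 counts per library, Gm5948 was at least 207-fold higher in WT than in RV-GFP and at least 205-fold higher than in Nr4a1-OV. Such intervals and floors leave out variation between cells or animals. They are no test, since the same counts chose these members.

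The copies closest in sequence to Rplp0 kept some counts in every library. Gm9625 held 2977 and 2944 counts in WT, 429 and 454 in KO, 383 and 419 in Nr4a1-OV, and 445 and 438 in RV-GFP. Gm8730 held 3836 and 3749 counts in WT, 702 and 693 in KO, 590 and 627 in Nr4a1-OV, and 658 and 684 in RV-GFP. Both reached 200 counts in all 8 libraries, so they could be tested with edgeR's quasi-likelihood test, with Benjamini-Hochberg adjustment over all genes. KO over WT, Gm9625 fell by 2.69 on the log2 scale (SE 0.0644, adjusted p = 1.4e-17) and Gm8730 fell by 2.39 (SE 0.0596, adjusted p = 1.4e-17). Gm6278 lay between, with 316 and 297 counts in WT and 8 to 15 in the other 6 libraries. Outside WT, the counts of the copies were thus highest for the pair most like Rplp0 and at most 3 for the pair least like it.

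Rplp0 itself moved the other way. It held 18171 and 17444 counts in WT, 35773 and 35992 in KO, 29338 and 31413 in Nr4a1-OV, and 35877 and 37164 in RV-GFP. Rplp0 was higher in KO than in WT by 1.07 on the log2 scale (SE 0.0523, edgeR adjusted p = 7.8e-13). The WT libraries were below all 6 others.

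**Figure D1:**
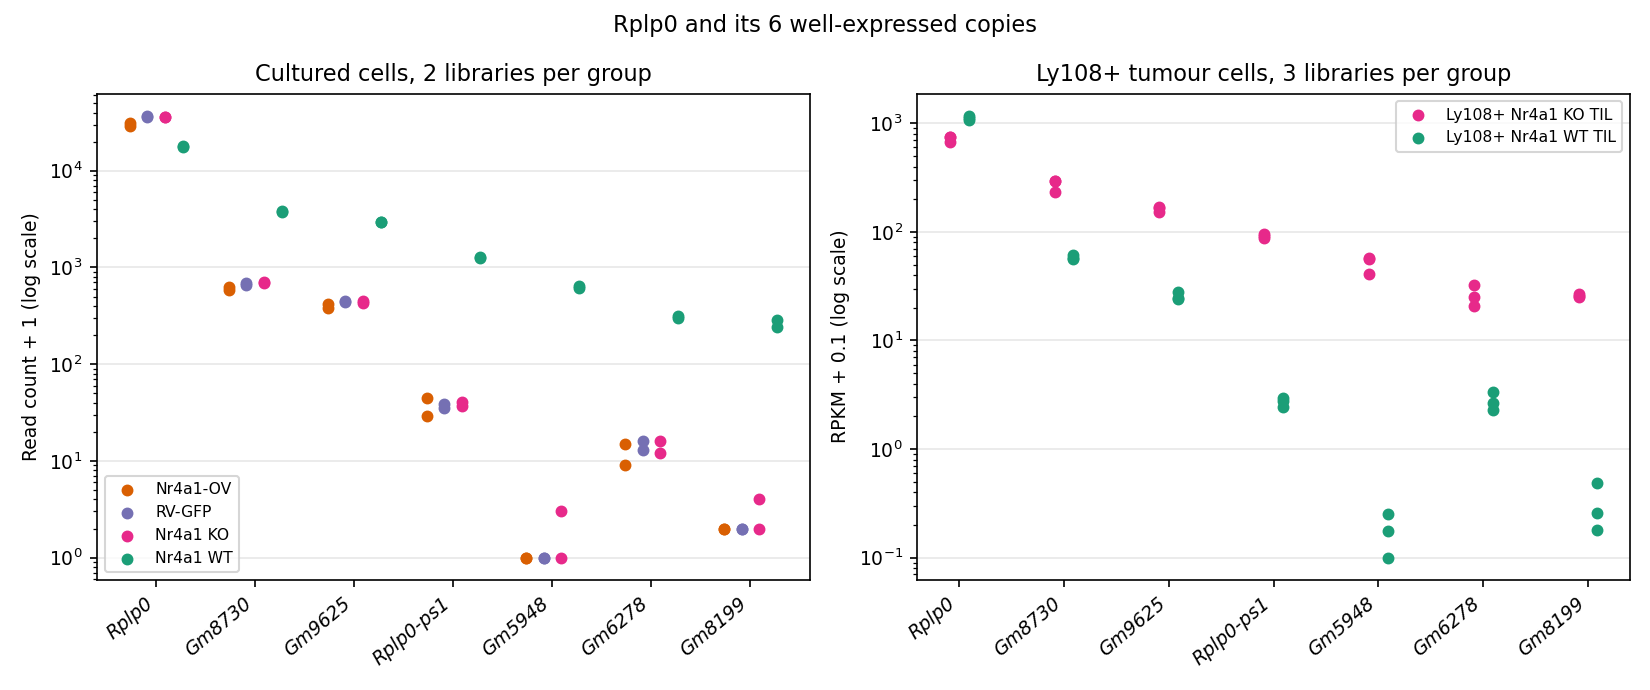
Rplp0 and its 6 well-expressed copies, with 1 point per library. The left panel gives counts plus 1 in the 8 cultured libraries and the right panel RPKM plus 0.1 in the 6 Ly108+ libraries, both on log axes. The copies are high in the cultured libraries labelled WT and in the Ly108+ libraries labelled KO, and Rplp0 is low in the same libraries.

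In the Ly108+ tumour cells the direction of the same copies was opposite with respect to the labels. Rplp0-ps1 was at 87.8, 92.4 and 96.5 RPKM in the libraries labelled KO and at 2.65, 2.36 and 2.83 RPKM in those labelled WT. Gm9625 was at 154, 169 and 166 RPKM in KO and at 23.8, 24.4 and 28.1 RPKM in WT. Gm8730 was at 232, 296 and 296 RPKM in KO and at 55.8, 57.1 and 61.7 RPKM in WT. Every KO library was above every WT library. With limma on log2(RPKM + 1), which understates the change of low genes, the log2 difference was 4.69 for Rplp0-ps1 (SE 0.0645, adjusted p = 5.3e-08), 2.63 for Gm9625 (SE 0.0704, adjusted p = 1.6e-06) and 2.21 for Gm8730 (SE 0.0981, adjusted p = 3e-05). Gm6278 was at 20.6, 25.3 and 32.1 RPKM in KO and at 2.19, 3.27 and 2.58 RPKM in WT.

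Gm5948 and Gm8199 passed the filter of 1 RPKM in the Ly108+ table through the KO libraries alone, so they are described without a test. Gm5948 was at 40.9, 57.6 and 56.1 RPKM in KO, and in WT it was listed at 0 in 1 library and at 0.0772 and 0.153 RPKM in the other two. Gm8199 was at 27.0, 25.5 and 25.05 RPKM in KO and at 0.158, 0.0787 and 0.391 RPKM in WT. Whole reads recovered from RPKM and gene length gave 2084 reads of Gm5948 over the KO libraries and 3 over the WT libraries. That is a ratio of 676 (95% interval 231 to 3283 from counting error alone), which is no test. Rplp0 was at 667, 748 and 752 RPKM in KO and at 1068, 1116 and 1178 RPKM in WT, and fell by 0.63 on the log2(RPKM + 1) scale (SE 0.0762, limma adjusted p = 0.0074).

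The table of cultured cells held 9 pseudogenes whose parent by sequence was Rplp0, and 8 of these had higher counts in both WT libraries than in all other 6. The Ly108+ table listed 8 of the 9, and all 8 were higher in each KO library than in each WT library. Gm5948, Gm8199, Rplp0-ps1 and Gm6278 met the count rule through the cultured WT libraries alone, so that rule fixed their order in culture. In Ly108+ cells, Gm5948 and Gm8199 passed the RPKM filter through the KO libraries alone. The share of all genes whose libraries separate in these ways is not given, so both counts are descriptions. Gm14165, which is not among the members, held 209 and 184 counts in cultured WT and 55 to 84 elsewhere. Of all reads on Rplp0 and its copies, the copies took 34.7% ± 0.342 (SD, n = 2) in cultured WT, 3.39% ± 0.019 in KO, 3.56% ± 0.0423 in Nr4a1-OV and 3.29% ± 0.0865 in RV-GFP (n = 2 each). In recovered reads of the Ly108+ cells they took 33.5% ± 0.673 in KO and 4.55% ± 0.0545 in WT (n = 3 each). Reads on the whole family numbered 26809 to 27720 in cultured WT and 30410 to 38404 in the other cultured libraries. In Ly108+ cells the recovered family reads overlapped, at 26394 to 30284 in KO and 28560 to 31864 in WT.

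The share of family reads on the copies therefore had 2 levels: cultured WT libraries stood with the Ly108+ KO libraries, and all remaining cultured and Ly108+ libraries stood with each other. The cultured and Ly108+ tables were normalised separately, but this share is taken within each library. Strain background was not tested, and it cannot be told apart from the labelled genotype in this design. The labels of one setting being exchanged was not tested either. Rplp0 was at 431 and 389 RPKM in Nr4a1RFP+ cells and at 389 and 340 RPKM in Tim-3+ cells, whose table lists none of the copies.

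**Figure D2:**
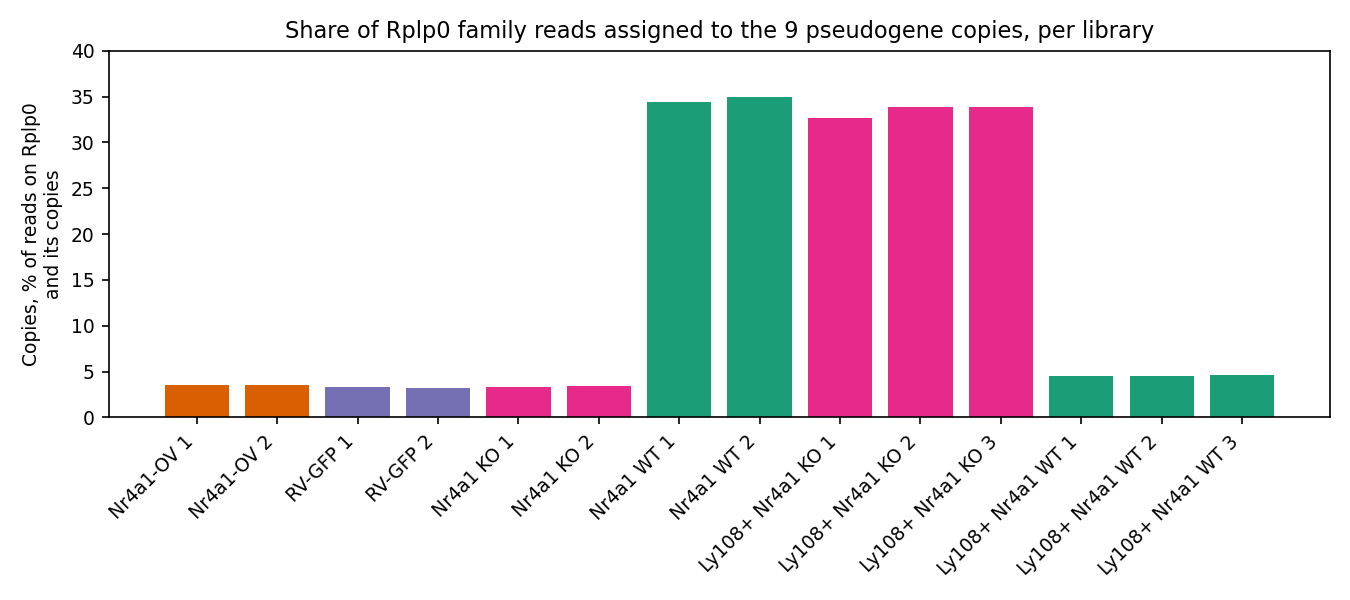
Percent of the reads on Rplp0 and its pseudogene copies that were on the copies, 1 bar per library, from counts in culture and from recovered reads in Ly108+ cells. Bars of cultured Nr4a1 WT and of Ly108+ Nr4a1 KO reach 32.7% to 34.9%, and all others lie between 3.23% and 4.61%.

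A second set of members was higher in the libraries labelled KO in both settings. Rpl3-ps1, a copy of the ribosomal protein gene Rpl3 on chrX:13202571-13203780, held 1850 and 1883 counts in cultured KO, 747 and 714 in WT, 599 and 636 in Nr4a1-OV, and 807 and 821 in RV-GFP. In Ly108+ cells it was at 110, 116 and 122 RPKM in KO and at 43.3, 41.7 and 40.8 RPKM in WT. KO libraries were above all others in each table, though in culture no overlap with WT was a condition for naming this member. The log2 difference, KO over WT, was 1.41 in culture (SE 0.0613, edgeR adjusted p = 1.1e-13) and 1.45 in Ly108+ cells (SE 0.0516, limma adjusted p = 7.9e-06). Rpl3 did not pass either test, at 0.11 (edgeR adjusted p = 0.091) and -0.24 (limma adjusted p = 0.0948). Of the windows of Rpl3-ps1, 95.7% occurred in another annotated transcript, counting any gene and not Rpl3 alone. How reads from such windows were assigned is not given. The first 60 coding bases of both are shown because they differ at 1 base, in capitals.
Rpl3: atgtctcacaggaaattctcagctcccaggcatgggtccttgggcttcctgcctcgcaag
Rpl3-ps1: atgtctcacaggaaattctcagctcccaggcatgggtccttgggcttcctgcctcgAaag

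Gm8276, on chr3:59431537-59433348, is a copy of Pabpc1, which encodes the cytoplasmic poly(A)-binding protein. It had 3 levels in culture, with 1110 and 1174 counts in KO, 607 and 615 in WT, 73 and 63 in Nr4a1-OV, and 63 and 79 in RV-GFP. In Ly108+ cells it was at 24.2, 22.7 and 27.3 RPKM in KO and at 4.05, 4.26 and 3.80 RPKM in WT. KO over WT it rose by 0.96 in culture (SE 0.075, edgeR adjusted p = 1.7e-09) and by 2.35 in Ly108+ cells (SE 0.0772, limma adjusted p = 6.4e-06). Pabpc1 changed by 0.01 and -0.03 in these comparisons and passed neither test. Only 10.5% of the windows of Gm8276 occurred elsewhere.

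Eif3s6-ps2, a copy of Eif3e, which encodes a subunit of translation initiation factor eIF3, held 597 and 585 counts in cultured KO, 316 and 306 in WT, 209 and 172 in Nr4a1-OV, and 223 and 221 in RV-GFP. In Ly108+ cells it was at 28.5, 28.2 and 29.8 RPKM in KO and at 12.1, 9.94 and 9.43 RPKM in WT. The KO libraries were the highest in both tables, with the same condition on its naming in culture as for Rpl3-ps1. It rose by 0.98 in culture (SE 0.0912, edgeR adjusted p = 2.3e-08) and by 1.38 in Ly108+ cells (SE 0.0865, limma adjusted p = 0.0002). Its parent Eif3e rose by 0.28 in culture (SE 0.0517, edgeR adjusted p = 0.00015), and its value in Ly108+ cells was -0.02 (limma adjusted p = 0.842).

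Outside the Rplp0 copies, Gm42047 and Tmem181b-ps also differed in opposite directions in the 2 settings. Gm42047, typed as pseudogene by the authors and as a long intergenic RNA in GENCODE M21, held 3730 and 3872 counts in cultured WT, 1732 and 1689 in KO, and 2077 to 2426 in the virus-infected libraries. In Ly108+ cells it was at 8.21, 7.78 and 7.76 RPKM in KO and at 4.03, 3.52 and 3.76 RPKM in WT. It fell by 1.09 in culture (SE 0.0593, edgeR adjusted p = 4.4e-12) and rose by 0.90 in Ly108+ cells (SE 0.0665, limma adjusted p = 0.00053). Tmem181b-ps, a copy of Tmem181a, held 263 and 238 counts in cultured WT and 46 to 98 in the other 6 libraries. In Ly108+ cells it was at 3.74, 4.80 and 4.34 RPKM in KO and at 2.10, 2.12 and 2.10 RPKM in WT.

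Counted over all members, KO over WT in culture, 50 of 162 members were higher, against a background of 18.4% of all genes tested, and 30 were lower, against 21.6%. Members that reached 200 counts in 1 group only made up 2 of the 50 and 5 of the 30. The median log2 change was 0.10 for members and -0.03 for all genes tested. In Ly108+ cells 158 of 162 members passed the filter, of which Gm5948, Gm8199 and Slfn10-ps passed through 1 group only. There, 16 members were higher (background 2.04%) and 2 were lower (background 2.41%), with a median of 0.04 against 0.00. Gm5948 and Gm8199 are 2 of the 16. Leaving out the 6 Rplp0 copies left 10 higher members in the Ly108+ cells. The count of higher members was 28 when the first Ly108+ KO library was left out and 11 when any of the other 5 was left out. The share of all genes called in those fits is not given. Summed RPKM of myeloid markers (Lyz2, Csf1r, Adgre1, Cd68, Itgam) was 79.3 to 111 in Ly108+ KO and 51.5 to 65.8 in Ly108+ WT, with 5 of 5 markers listed. In culture, where 3 of the 5 are listed, it was 12.5 to 13.1 in KO and 4.405 to 4.73 in WT. Summed RPKM of tumour and stroma markers (Pmel, Mlana, Col1a1, Pecam1; 3 of 4 listed in each table) was 12.6 to 13.1 in cultured KO and 19.8 to 22.5 in WT, and 49.9 to 54.2 in Ly108+ KO and 48.03 to 49.3 in Ly108+ WT. The part of these markers in the members' results was not tested.

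The comparisons of KO with WT in culture and in Ly108+ cells share no libraries. The difference between them, tested by edgeR on cultured counts and recovered reads, passed the threshold as higher in Ly108+ cells for 21 of 162 members (background 12.8%) and as lower for 19 (background 12.5%). The count rule or the RPKM filter tied 6 of the 21 (Gm5948, Gm8199, Rplp0-ps1, Gm6278, Tmem181b-ps and Gm11964) and 2 of the 19 (Gm6170 and Slfn10-ps) to KO or WT libraries, which leaves 15 and 17. Of 158 members tested in both settings, 15 passed both thresholds, which is 19.2% of the 78 called in culture and 83.3% of the 18 called in Ly108+ cells. Over all 10719 genes tested in both, 262 did so, 5.40% of those called in culture and 56.1% of those called in Ly108+ cells. Signs were opposite for 8 of the 15 members and for 116 of the 262 genes (44.3%). The rule ties 5 of these 8 to cultured WT (Gm5948, Gm8199, Rplp0-ps1, Gm6278 and Tmem181b-ps). Among members tied to no group, 10 passed both, with opposite signs for 3 (Gm8730, Gm9625 and Gm42047) and like signs for 7. The 7 were Rpl3-ps1, Gm8276, Eif3s6-ps2, Gm11478, Gm14681, Gm8942 and, lower in KO in both, Gm4759. Gm14681, a copy of the nucleolar gene Npm1, rose by 0.28 and 0.30, and Gm8942, a copy of Rps24, by 0.44 and 0.34. In Ly108+ cells Gm14681 and Gm11478 lay close to the threshold (limma adjusted p = 0.0495 and 0.0496). In culture Npm1 rose by 0.32 and Rps24 by 0.41, and the ratios of Gm14681 and Gm8942 to them changed by -0.03 and 0.02. Neither ratio passed the limma test. Gm4759 held 356 and 471 counts in cultured KO and 620 and 796 in WT, and was at 1.83, 1.07 and 0.809 RPKM in Ly108+ KO and at 4.22, 3.36 and 4.01 RPKM in Ly108+ WT. Its Ly108+ difference of -1.14 (SE 0.164, limma adjusted p = 0.0149) did not pass the threshold without the second KO library (adjusted p = 0.0735) or without any of the WT libraries (adjusted p = 0.0567 to 0.0772, by limma). Gm10925, a nuclear copy on chromosome 1 that is identical to the mitochondrial gene mt-Atp6, was at 71.2, 81.9 and 92.9 RPKM in Ly108+ KO and at 118, 126 and 107 RPKM in Ly108+ WT (difference -0.52, SE 0.1, limma adjusted p = 0.0369). This call also ended without the second KO library or any WT library.

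**Figure D3:**
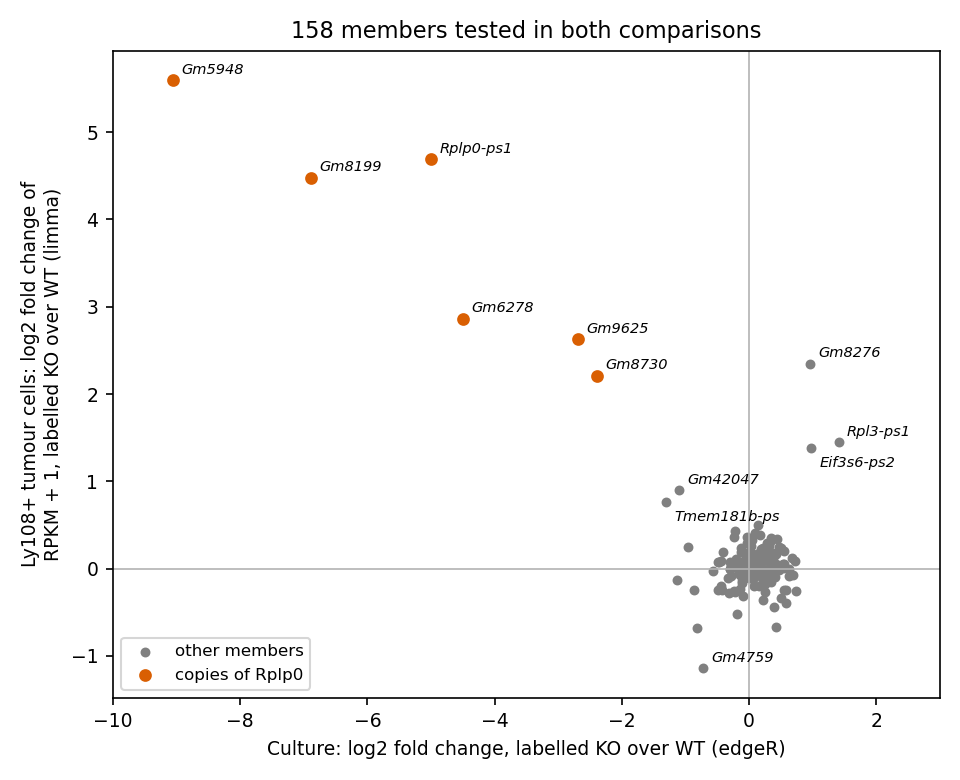
Log2 fold change of labelled KO over WT in culture (horizontal axis, edgeR) and in Ly108+ cells (vertical axis, limma on RPKM plus 1) for the 158 members tested in both. The 6 Rplp0 copies lie at the upper left, Rpl3-ps1, Gm8276 and Eif3s6-ps2 at the upper right, and most other members near 0 on both axes.

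Nr4a1 overexpression was compared with the control virus next. Most members were lower in Nr4a1-OV: 114 of 162 were lower, against 29.6% of all genes tested, and 14 were higher, against 31.3%. The median log2 change was -0.41 for members and 0.02 for all genes. Members bound to 1 group by the rule made up 4 of the 114 and 3 of the 14. Among markers of CD4 and regulatory T cells, Foxp3, which encodes the transcription factor of regulatory T cells, was at 55.7 and 56.1 RPKM in Nr4a1-OV and at 0.768 and 0.630 RPKM in RV-GFP. Cd4 was at 0.145 and 0.101 RPKM in Nr4a1-OV and at 0.162 and 0.114 RPKM in RV-GFP. The part of Foxp3 in the members' values was not tested. Fewer cells of a type and less RNA per cell cannot be told apart in bulk samples.

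Among the lowest members, Gm7901, a copy of Phgdh, which encodes the first enzyme of serine synthesis, held 81 and 93 counts in Nr4a1-OV and 201 and 184 in RV-GFP. It fell by 1.30 on the log2 scale (SE 0.132, edgeR adjusted p = 2.6e-08), and Phgdh fell by 1.42. Gm5424, a copy of the arginine synthesis gene Ass1, held 106 and 107 counts in Nr4a1-OV and 214 and 228 in RV-GFP, and fell by 1.21 (SE 0.119, edgeR adjusted p = 1.6e-08), while Ass1 fell by 1.23. Gm12020, a copy of the nucleolin gene Ncl, held 866 and 776 counts in Nr4a1-OV and 1649 and 1596 in RV-GFP, and fell by 1.14 (SE 0.0705, edgeR adjusted p = 1.2e-11), while Ncl fell by 1.03. Hspd1-ps3, a copy of the mitochondrial chaperonin gene Hspd1, fell by 1.04 (SE 0.076, edgeR adjusted p = 1.7e-10) from 1194 and 1158 counts in RV-GFP to 663 and 613. Nr4a1-OV and RV-GFP libraries did not overlap for these 4 members, which was a condition for naming them and is no further result. Gm15484, an Npm1 copy, held 123 and 113 counts against 220 and 229, and Gm7730, whose parent by sequence was Gm20390, held 108 and 126 against 211 and 212. Both reached 200 counts only in RV-GFP.

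Several of the highest members had parents that changed less or in the other direction. Hmgb1-ps8, a copy of the chromatin protein gene Hmgb1, held 272 and 251 counts in Nr4a1-OV and 47 and 36 in RV-GFP, with 24 to 73 in KO and WT. Hmgb1 itself fell by 0.27 in the same comparison (edgeR adjusted p = 0.0014). H2-K2, a class I histocompatibility pseudogene, held 381 and 390 counts in Nr4a1-OV and 137 and 121 in RV-GFP, with 160 to 177 in KO and WT. Nr4a1-OV was above all 6 other cultured libraries for both, which reached 200 counts in Nr4a1-OV alone. In Ly108+ cells Hmgb1-ps8 was at 1.89 to 6.27 RPKM and H2-K2 at 19.9 to 25.2 RPKM.

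For the other high members, RV-GFP was the low group. H2-T-ps, whose parent by sequence was the nonclassical class I gene H2-T23, held 283 and 291 counts in Nr4a1-OV, 71 and 116 in RV-GFP, 469 and 512 in KO, and 432 and 451 in WT. It rose by 1.46, Nr4a1-OV over RV-GFP (SE 0.146, edgeR adjusted p = 2e-08), and H2-T23 rose by 0.20. Gpx4-ps2, a copy of the gene for an enzyme that reduces lipid peroxides, held 143 and 136 counts in Nr4a1-OV, 47 and 36 in RV-GFP, and 218 to 251 in KO and WT. It rose by 1.59 (SE 0.172, edgeR adjusted p = 6.4e-08), and Gpx4 rose by 1.28. Ppp4r1l-ps, with no parent found, held 473 and 418 counts in Nr4a1-OV, 181 and 172 in RV-GFP, and 379 to 480 in KO and WT, and rose by 1.18 (SE 0.103, edgeR adjusted p = 2.7e-09). Gm8995, related to the interferon-inducible GTPase gene Gvin1, held 9177 and 7723 counts in Nr4a1-OV and 4552 and 3858 in RV-GFP, and rose by 0.85 (SE 0.0798, edgeR adjusted p = 7.4e-09).

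**Figure D4:**
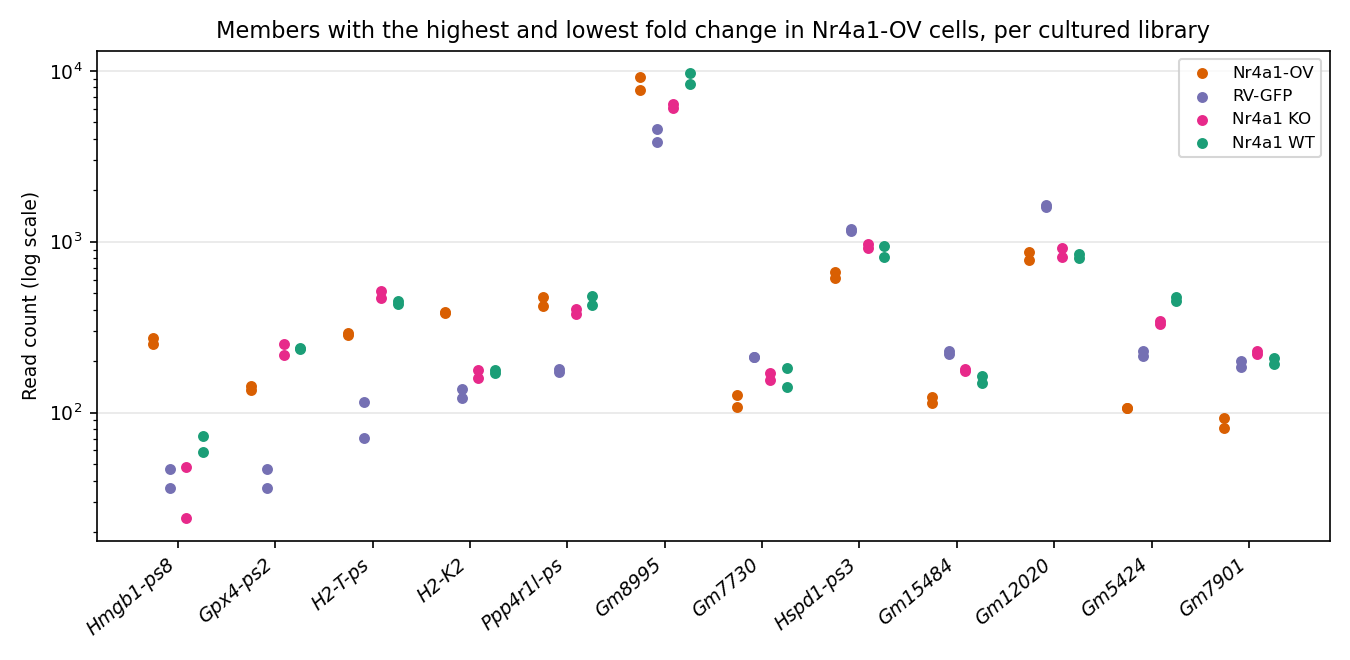
Counts of the 12 members with the highest and lowest fold changes of Nr4a1-OV over RV-GFP, ordered from highest to lowest, with 1 point per cultured library on a log axis. Hmgb1-ps8 and H2-K2 are high in Nr4a1-OV alone, while for H2-T-ps, Gpx4-ps2, Ppp4r1l-ps and Gm8995 the RV-GFP libraries are the lowest.

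RV-GFP and Nr4a1 WT differ in virus, activation and culture at once, which cannot be told apart. This comparison shares libraries with both preceding ones in culture, so its values are given on their own. RV-GFP over WT, 76 members were higher (background 32.4%) and 35 were lower (background 38.6%), with a median of 0.21 against -0.07 for all genes. Members bound to 1 group by the rule made up 4 of the 76 and 6 of the 35. Gm9523, a copy of Mat2a, which encodes an enzyme that makes the methyl donor S-adenosylmethionine, held 250 counts in each RV-GFP library and 107 and 97 in WT. It rose by 1.54 (SE 0.129, edgeR adjusted p = 6.2e-10), and Mat2a rose by 1.59. Gm12263 rose by 1.37 with its parent Arih2 at 1.30, Gm6501 by 1.25 with the RNA-binding protein gene Syncrip at 0.96, and Eif4a-ps4 by 1.12 with the initiation helicase gene Eif4a1 at 1.18. Among members other than Rplp0 copies the largest fall was that of Gm8276, which fell by 2.86 (SE 0.114, edgeR adjusted p = 2.6e-15) while Pabpc1 rose by 0.32.

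Members and parents were then set against each other, since both can receive the same reads. A parent was found for 153 of 162 members, and 150 pairs could be tested in culture. For Nr4a1-OV over RV-GFP, 135 of 150 members changed in the direction of their parent, and of 118 pairs with both past the threshold 115 had the same sign. KO over WT in culture, these counts were 122 of 150 and 54 of 60, and RV-GFP over WT they were 128 of 150 and 84 of 95. In Ly108+ cells 95 of 144 had the direction of the parent, and none of the 6 pairs called on both sides did, all 6 being Rplp0 copies. Across pairs, Pearson's r was 0.77, -0.26, 0.04 and -0.57 in these comparisons, and 0.77, 0.54, 0.68 and 0.23 without the Rplp0 copies. These are descriptions, since the points share parents and may share reads. Most members fell in Nr4a1-OV, and no share of like signs for other gene pairs is given beside these counts.

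**Figure D5:**
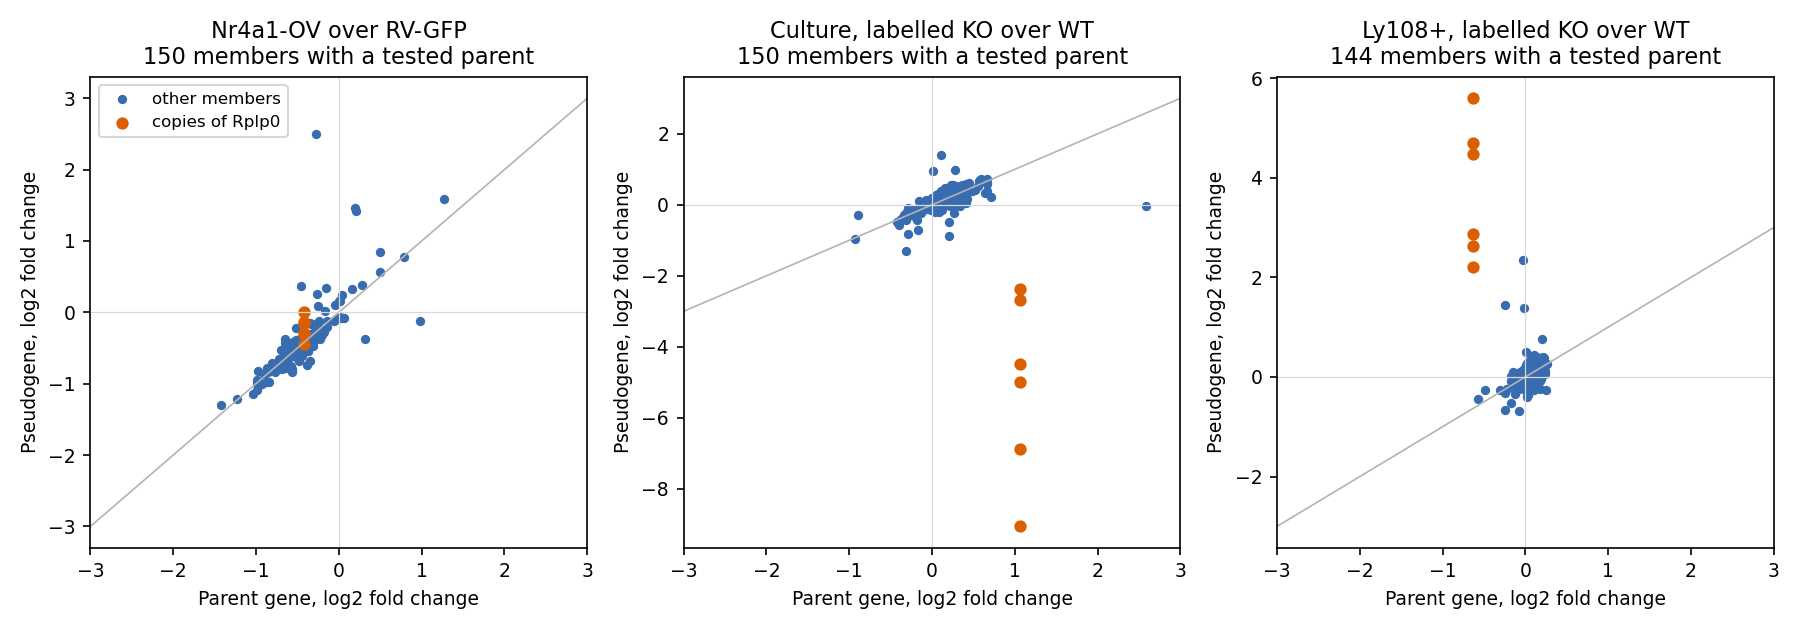
Log2 fold change of each member (vertical axis) against that of its parent gene (horizontal axis) in 3 comparisons, with the line of equal change. The vertical axes differ between panels. Most members lie near the line in Nr4a1-OV over RV-GFP, and the 6 Rplp0 copies lie far from it in both comparisons of KO with WT.

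The log2 ratio of pseudogene to parent counts removes any change shared by both. With limma on 1182 pseudogene and parent pairs of the table, Nr4a1-OV over RV-GFP, 4 members had a higher ratio (background 0.931%) and 2 a lower one (background 0.846%). The ratio rose by 1.30 for H2-T-ps (SE 0.159, limma adjusted p = 0.00011), and it was 2.77 and 1.21 higher for Hmgb1-ps8 and H2-K2, which the rule ties to Nr4a1-OV. KO over WT, 5 members had a higher ratio (background 1.27%) and 12 a lower one (background 1.35%), of which 6 were Rplp0 copies. The rule ties 5 of the 12 to WT (Gm5948, Gm8199, Rplp0-ps1, Gm6278 and Tmem181b-ps), so their lower ratios were fixed by the selection. Rpl3-ps1 rose by 1.30 (SE 0.0666, limma adjusted p = 1.5e-10), Gm8276 by 0.95 (SE 0.114, limma adjusted p = 2e-05) and Eif3s6-ps2 by 0.70 (SE 0.107, limma adjusted p = 0.00037) relative to their parents. The higher ratios numbered 3 without either KO library or without the second WT library.

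RV-GFP over WT, the ratio was higher for 2 members (background 1.1%) and lower for 19 (background 2.79%). The same 5 members tied to WT are among the 19. Slfn10-ps, a Schlafen family pseudogene, held 536 and 472 counts in RV-GFP and 245 and 268 in WT. Its ratio to Slfn9 rose by 2.43 (SE 0.118, limma adjusted p = 4.8e-11), with the member up by 1.22 and Slfn9 down at -1.21. The ratio of 2700099C18Rik to the kinetochore gene Ndc80 rose by 1.12 (SE 0.133, limma adjusted p = 1.2e-05). The member fell by 1.82 and Ndc80 fell by 2.95.

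By the role of the parent, 39 members were copies of ribosomal protein genes, 22 of genes for translation factors and RNA-binding proteins, 5 of chromatin and cytoskeleton genes, 2 of glycolysis and housekeeping enzyme genes and 2 of chaperone genes, and 92 were in none of these lists. Nr4a1-OV over RV-GFP, 33 of the 39 ribosomal protein copies were lower (background 29.6%) and 1 was higher (background 31.3%), with a median of -0.45. The rule ties 1 of the 33 to RV-GFP. The ribosomal protein genes themselves were lower in 76 of 81 cases and higher in 0 (edgeR). The copy that rose was Rps15a-ps4, at 3138 and 3337 counts in Nr4a1-OV and 2602 and 2593 in RV-GFP (log2 change 0.16, SE 0.0529, edgeR adjusted p = 0.0117), while Rps15a changed by 0.02. That call did not hold in DESeq2 (adjusted p = 0.105), nor in edgeR without the second Nr4a1-OV library (adjusted p = 0.142) or without either RV-GFP library (0.162 and 0.177). Of the 22 copies of translation and RNA-binding genes, 19 were lower and 1 was higher, against the same backgrounds. The rule ties 2 of the 19 to RV-GFP.

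KO over WT in culture, 26 of the 39 ribosomal protein copies were higher (background 18.4%) and 6 were lower (background 21.6%). The 6 were the Rplp0 copies. The rule ties 1 of the 26 to KO and 4 of the 6 to WT. Of the 81 ribosomal protein genes, 65 were higher and 1 was lower. RV-GFP over WT, 28 copies were higher (background 32.4%) and 6 lower (background 38.6%). The rule ties 1 of the 28 and 4 of the 6, and 76 of 81 genes were higher. In Ly108+ cells 8 copies were higher (background 2.04%) and 0 lower (background 2.41%), with 2 of 81 genes higher and 2 lower. The 8 were the 6 Rplp0 copies, Rpl3-ps1 and Gm8942. Of these, Gm5948 and Gm8199 passed the RPKM filter through the KO libraries alone. Of the 5 copies of chromatin and cytoskeleton genes, 4 were lower in cultured KO than in WT (background 21.6%). So were 12 of the 17 genes of that list.

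Of the 6 most abundant members by mean CPM (counts scaled to library size) over the cultured libraries, 4 were copies of translation genes. The first, Gm13456, a copy of the elongation factor gene Eef1a1, held 5490 and 5790 counts in WT, 9013 and 9090 in KO, 5860 and 6081 in Nr4a1-OV, and 7387 and 6921 in RV-GFP. Per length it was at 224 to 383 RPKM in culture and at 212 to 323 RPKM in Ly108+ cells. Gm8995, the next by CPM at 407 against 413, had the higher mean count, 6980.1 against 6954. Gm9794, a copy of Rpl23, was higher per length, at 559 to 832 RPKM in culture and at 755 to 1120 RPKM in Ly108+ cells. Rpl14-ps1 fell by 0.77 in Nr4a1-OV against RV-GFP (SE 0.0551, edgeR adjusted p = 1.2e-10), while Rpl14 fell by 0.75.

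All 162 members were matched to GENCODE M21 by symbol. The annotation types 128 as processed and 9 as transcribed processed pseudogenes, 8 as unprocessed, 8 as transcribed unprocessed, 2 as transcribed unitary, 3 as long intergenic RNA and 4 as protein coding. Identity to the parent had a median of 98.6% over 153 members (84.1% to 100%), and 23 were identical to it over the aligned part. A median of 55.6% of a member's 50-base windows occurred in another annotated transcript. For 23 members every window did, and for 7 none did. How the authors assigned reads that match several copies is not given, and levels of these 23 members in particular are uncertain. Rplp0 was the parent of 6 members, Npm1 of 4 and Eef1a1 of 3. Chromosome 1 held the most members, 17, and chromosome 15, where Nr4a1 lies, held 2: Gm5805 and Tcea1-ps1, which start 19.3 Mb and 10.4 Mb before Nr4a1.

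In the table of Nr4a1RFP+ and Tim-3+ cells, 1 member was listed, since the 13537 rows of that table are all typed as protein coding. Tmem250-ps was at 16.5 and 17.2 RPKM in Nr4a1RFP+ cells and at 19.4 and 13.6 RPKM in Tim-3+ cells. The groups overlapped, and the log2 difference was 0.05 (SE 0.165, limma adjusted p = 0.879). The other members were not analysed in these cells.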

How the data were processed

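Per the submitters' processing notes, reads were trimmed with Trim Galore, aligned to mm10 with HISAT2 and handled with edgeR and DESeq2. Versions, read counter, strand setting and handling of reads that match several places are not given in the sources used here. The cultured table holds raw counts per gene, deposited by the authors. The RPKM values deposited by the authors are counts divided by gene length and library scale, and the tumour tables hold no counts. Columns of exhausted cells were taken as Tim-3+, and 2 columns matched no sample and were not used.

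The members and gene lists were chosen with earlier results of these data known. Counts were tested with edgeR 4.0.16 in R 4.3.3 (filterByExpr, TMM, quasi-likelihood, 1 model of 8 libraries), RPKM with limma 3.58.1 on log2(RPKM + 1) for genes at 1 RPKM or more in as many libraries as the smaller group, and the ratio of pseudogene to parent counts, 0.5 added to each, with limma. Tests were two-sided, adjusted by Benjamini-Hochberg over all features of a fit, with a threshold of 0.05. An SE of an edgeR value is the log2 change divided by the square root of F. The edgeR test of cultured counts and the limma tests of Ly108+ RPKM and of ratios were also run on simulated data. Of 200 features changed 2-fold they found 196, 186 and 197, with 5, 12 and 9 false calls. The recovery of reads, tests of recovered reads and the parent matching were not simulated. Parents were found with blastn 2.17.0 among GENCODE M21 coding transcripts (at least 80% identity over 50% of the pseudogene). Of the 162 members, 142 had the annotated transcript's length in the table.

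Ly108+ reads were recovered from RPKM and length for 95.6% of genes, and 98.6% to 98.9% of values under 200 reads were whole within 0.05. Recovered reads totalled 15.2 to 15.8 M per library. An edgeR test of them called 978 of 12990 genes, 370 higher and 608 lower. This alternative, the counts without the Rplp0 copies, and the difference between the culture and Ly108+ comparisons were chosen after seeing the data. Named members were the 5 that mark the set, the 6 most abundant, the 6 highest and 6 lowest called per comparison (3 and 3 for ratios) with libraries that did not overlap, those at the edge of the rule, those within 20 Mb of Nr4a1, and their parents. Others named (Tmem181b-ps, Gm14681, Gm8942, Gm11478, Gm14165 and the members tied to 1 group) were chosen after their values were seen. Sequences are from GENCODE M21 transcripts on GRCm38, each copy aligned to its parent by local alignment. Figures used matplotlib 3.10.9.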

Additional observations from a re-analysis of the deposited data

Results flagged for a closer look

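For 14 named members, the KO over WT change in Ly108+ cells was compared with that in culture in 1 edgeR fit of cultured counts and recovered reads, a comparison chosen after seeing the data. The count rule tied 4 of them (Gm5948, Gm8199, Rplp0-ps1 and Gm6278) to cultured WT, so the culture part of their difference was fixed by the selection and their values are given without a test. Of the other 10, the change differed for 8. The named members include the highest and lowest of these same KO over WT comparisons, which favours a difference between settings. The 8 of 10 is therefore a description and is not to be set against the share of all genes. Over all genes in that fit 12.8% were higher and 12.5% lower, and over the 162 members 21 were higher and 19 lower, of which 6 and 2 were tied to KO or WT libraries by the count rule or the RPKM filter.

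The Rplp0 copies, which changed in opposite directions, differed most. The Ly108+ change less the culture change was 4.62 on the log2 scale for Gm8730, 5.36 for Gm9625, 7.75 for Gm6278 and 10.1 for Rplp0-ps1. For Gm8199 and Gm5948 the fitted values were 13.8 and 18.3. These depend on 0 to 3 counts per cultured KO library and 0 to 5 recovered reads per Ly108+ WT library, and are no measure of size.

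Gm8276 and Eif3s6-ps2 were higher in KO in both settings, and more so in Ly108+ cells, by 1.65 and 0.47. Gm4759 was lower in both, with a difference of -0.93. Gm13456 (-1.0), Rps15a-ps4 (-0.77) and Rpl38-ps2 (-0.64), copies of translation genes, were higher in cultured KO and did not pass the test in Ly108+ cells. The cultured and tumour cells differ in stimulation, library preparation is not given per library, and the part of either in these differences was not tested.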

How the results depend on the processing

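No result reversed. Of 683 alternative values for named members, 650 kept direction and side of the threshold, 16 lost the threshold and 17 moved by more than the spread. Of 92 alternative counts of called members, 74 stayed within 1.5 times. Another membership rule changes the number of members: 288 at 100 counts, 65 at 500 and 131 at a mean of 200. At 100 counts, Nr4a1-OV over RV-GFP gave 25 higher and 174 lower, and RV-GFP over WT gave 117 and 70. At 500 counts these were 6 and 52, and 41 and 13, with 15 lower KO over WT, and 10 higher and 1 lower in Ly108+ cells. DESeq2 called 9 members higher in Nr4a1-OV. Without the 6 Rplp0 copies, 10 members were higher in Ly108+ cells and 6 had a lower ratio to the parent in KO. With 5 added to each count, 1 member had a lower ratio in Nr4a1-OV, and with the stricter parent match 1 had a higher ratio in RV-GFP over WT. The cause of these changes was not tested beyond the smaller or larger membership. Shares of all genes called under these and the other alternative settings are not given, nor are the members tied to 1 group. A change in these counts can therefore not be read as particular to the members.

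With 1 library left out, Nr4a1-OV over RV-GFP gave 10 to 13 members higher and 105 to 111 lower, KO over WT 36 to 51 and 20 to 26, and RV-GFP over WT 69 to 82 and 28 to 31. Ly108+ KO over WT gave 11 to 28 higher and 0 to 7 lower. The lower count was 7 without the first KO library, 2 without the third and 0 without the second or any WT library. Ratios gave 4 to 5 and 1 to 2 in Nr4a1-OV (1 lower without the first Nr4a1-OV library), 3 to 4 and 9 to 11 in KO, and 2 to 3 and 16 to 17 in RV-GFP over WT. Slfn10-ps lost its Nr4a1-OV ratio call without the first library of either group, and Gm11427 with 5 added to each count.

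Deviations of same-numbered libraries correlated at 0.051, 0.030 and -0.032 in culture and at 0.216, 0.0929 and 0.00748 in Ly108+ cells, so the numbers were not taken as pairs. With the number as a replicate block, 1 member was lower in Ly108+ cells (Gm10925 lost its call, adjusted p = 0.0544 by limma) and 9 had a higher ratio in KO. Between Nr4a1RFP+ and Tim-3+ cells no count of members can be given, since 1 is listed, and its alternatives were not run. Depth limits the Rplp0 copies in the low groups, at 0 to 44 counts for 4 of them.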
